A study of Mus musculus with 9 samples.

Results

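Mitochondrial ribosomal protein genes are the nuclear genes, named Mrpl or Mrps, whose products form the protein part of the ribosome inside mitochondria. They were taken as every counted gene with a mouse symbol that begins with Mrpl or Mrps and a number, with pseudogenes left out. This gave 78 genes of the 27179 counted entries, and 76 of the 78 passed the filter on low counts, as did 12004 entries in all. The 2 that did not pass were Mrpl36 and Mrps36. These 78 genes were chosen by name and not by their values, though with earlier results of these data known.

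The mitochondrial ribosome translates the few proteins encoded by mitochondrial DNA, all of them inner membrane subunits of oxidative phosphorylation. Its RNAs come from the mitochondrial genome, while its proteins are made in the cytoplasm and imported. It descends from a bacterial ribosome, so some of its proteins have bacterial counterparts and others were gained later. Doxycycline is a tetracycline, a class of drugs that binds the small subunit of bacterial ribosomes and can also block translation in mitochondria.

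RNA-seq was done on AML246, a mouse acute myeloid leukaemia line of the C57BL/6 strain that is p53-/- and carries shPU.1, a hairpin that lowers PU.1. PU.1 is a transcription factor of myeloid cells, and its gene is Spi1. Clones 1, 2 and 4 had each been grown from a single cell, in medium with IL3, and each gave 1 library per group. Wash libraries came from cells given doxycycline for 14 days, then washed and kept without it for 14 days, and sorted as GFP-high. Dox libraries came from cells given doxycycline for 14 days and sorted as GFP-off. Untreated libraries came from cells sorted as GFP-high. All groups share the p53-/- background and the hairpin. No library had doxycycline without the change in GFP gate and Spi1 level, so the drug and the hairpin state cannot be told apart, and the 3 clones stand for 1 line. Spi1 was measured at 52.0, 40.6 and 23.9 CPM (counts scaled to a common library size) in Wash clones 1, 2 and 4, at 197, 191 and 156 CPM in Dox, and at 48.1, 46.6 and 23.7 CPM in untreated clones. It was higher in every Dox library than in any other.

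Library totals ran from 7408118 to 9803258 counts, of which the mitochondrial ribosomal protein genes held 15101 to 40237. The median gene among them had 184 to 475 counts per library. A pair of clone 1 libraries stood apart. In untreated clone 1, 22.0% of counts lay on 1 entry with no symbol, against 0.153% to 1.64% elsewhere, and its scaling factor by the trimmed mean of M-values (TMM) was 0.736, against 0.916 to 1.18 elsewhere. In Wash clone 1, genes of the mitochondrial genome held 3.28% of counts, close to the 2.66% of Dox clone 1 and far from the 12.7% of untreated clone 1; in clone 2 they held 15.8% in Wash, 18.6% in Dox and 16.8% in untreated cells, and in clone 4 they held 22.0%, 7.52% and 20.4% in the same groups. The widest 95% Wilson interval of these shares spanned 0.0596 percentage points, for counting error only.

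The libraries were also checked for blood cell markers. All 12 haematopoietic and myeloid markers were detected well enough to be tested. They summed to 4951 to 5280 CPM in Wash, 4835 to 11769 CPM in Dox and 4834 to 5218 CPM in untreated libraries. In Dox against untreated cells 5 of the 12 rose (Ptprc, Spi1, Kit, Cd34 and Itgam) and none fell, with a median log2 fold change of 0.73. Of all entries tested, 6.57% rose and 4.35% fell. With clone added to the model as a block, 6 markers rose and 1 fell, beside 13.0% and 11.7% of all entries. Ptprc, the pan-leukocyte gene for CD45, was at 0.489 to 0.735 CPM in Wash and 0.988 to 2.02 CPM in untreated cells, against 28.0 to 45.1 CPM in Dox cells. Of 11 T, B and NK cell markers only Cd3g, a chain of the T cell receptor complex, passed the filter, and Cd4, Pax5 and Ncr1 were at 0 in every library. The summed level of these 11 was 8.47 to 211 CPM in Wash, 8.82 to 38.8 CPM in Dox and 83.6 to 164 CPM in untreated libraries. The 7 erythroid markers summed to 9.20, 29.7 and 19.5 CPM in Wash clones 1, 2 and 4, 1.59 to 8.997 CPM in Dox, and 15.6 to 24.2 CPM in untreated libraries. The 9 stromal, endothelial and epithelial markers summed to 895 to 981 CPM in Wash, 937 to 1067 CPM in Dox and 930 to 972 CPM in untreated libraries, nearly all of it Pecam1 and Pdgfrb, while Col1a2, Cdh5 and Kdr were at 0 in every library. The part of these differences in the results below was not tested.

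Taken as a sum, the 78 genes were lowest in the Dox library of every clone. Their summed level was 3703, 2842 and 2742 CPM in Wash clones 1, 2 and 4, 2758, 1998 and 2313 CPM in Dox clones, and 2974, 2656 and 2811 CPM in untreated clones. The Dox library of clone 1 lay above the untreated library of clone 2, so the groups overlapped across clones. As a share of raw counts the order in clone 1 was different, at 0.435% in Wash, 0.319% in Dox and 0.219% in untreated cells, or 0.281% in untreated cells with the entry that has no symbol left out. In bulk RNA, less RNA per cell and fewer cells that carry it cannot be told apart. The large subunit genes summed to 2.30 to 2.53 times the small subunit genes in all 9 libraries, with no order by group.

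**Figure D1:**
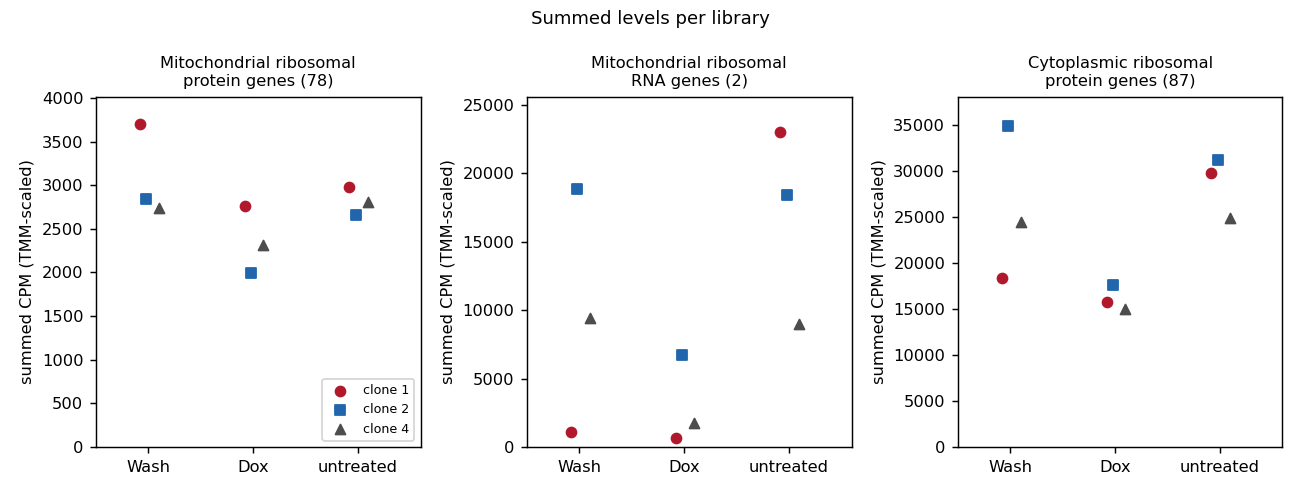
Summed CPM (vertical axes, linear, from 0) of 3 sets of genes in each library, with groups on the horizontal axes and 1 point per clone. The mitochondrial ribosomal protein genes summed to 1998 to 2758 CPM in Dox and 2656 to 2974 CPM in untreated libraries, and Wash clone 1 was highest at 3703 CPM.

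Levels differed widely between genes. Per kilobase of the deposited gene length, and averaged over the 9 libraries, the median among the genes tested was 26.5 CPM. Mrpl33, a short protein of the large subunit, was highest at 222 CPM per kilobase, then Mrpl54, a large subunit protein without bacterial counterpart, at 153, and Mrpl20, which has a bacterial counterpart, at 96.2. At the low end among the genes tested stood Mrps25, a small subunit protein, at 4.02 CPM per kilobase. Mrps36, whose product is now known as a component of the 2-oxoglutarate dehydrogenase complex, was at 1.24 CPM per kilobase with 4 to 12 counts per library. Mrpl36, a small protein of the large subunit, had 0 counts in all 3 Wash libraries, 0, 1 and 0 counts in Dox clones 1, 2 and 4, and 0, 2 and 1 counts in untreated clones. A count of 0 allows up to 3 counts in a library, so Mrpl36 was not measurable at this depth.

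The spread over the 9 libraries, as the SD of log2 CPM, had a median of 0.35 among the genes tested, against 0.43 over all 12004 entries. Mrps18a and Mrpl43 varied least, with an SD of 0.14 each. Mrps18b and Mrpl16 varied most, with SDs of 0.64 and 0.63. Mrps18a, Mrps18b and Mrps18c are paralogs of 1 bacterial protein, so the steadiest and the most variable of these genes came from the same family.

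**Figure D2:**
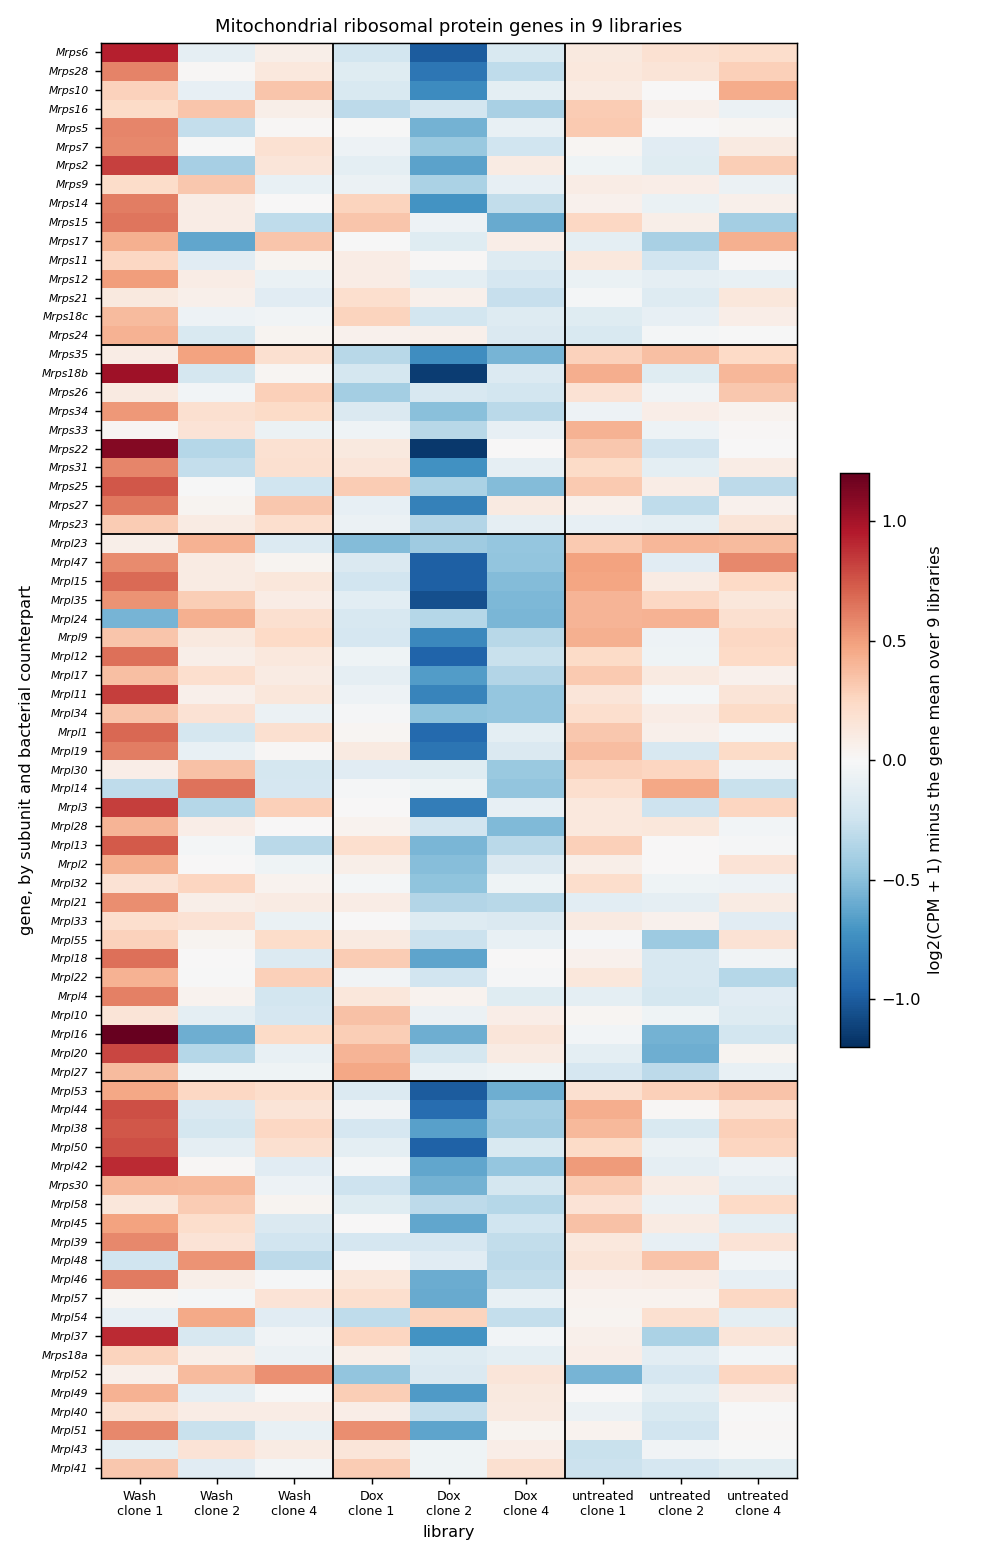
Level of each of the 76 tested genes (rows, in blocks by subunit and bacterial counterpart) in each of the 9 libraries (columns), as log2(CPM + 1) minus the mean of the gene over all libraries. The Dox column of clone 2 is mostly blue and the Wash column of clone 1 mostly red, while the untreated columns are paler.

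The first comparison asked how cells on doxycycline differed from untreated cells. Most mitochondrial ribosomal protein genes had lower values in Dox cells, by small amounts: the median log2 fold change of Dox against untreated was -0.28, or -17.8%, against 0.00 for all entries tested. Scaled by library size alone, the median was -0.016 for these genes and 0.23 for all entries, a difference of -0.25. Among the 76 genes, 59 lay below 0, or 77.6%, against 49.7% of all entries, and 17 lay above 0, or 22.4% against 50.3%. The middle of the list ran from -0.50 to -0.03 (quartiles) and the whole list from -1.04 to 0.37. Within clones 1, 2 and 4 the medians were -0.15, -0.49 and -0.28. In 46 genes, or 60.5%, the Dox library was lower in each of the 3 clones, against 31.8% of all entries, and in 3 it was higher in each, or 3.95% against 32.1%. All 3 Dox libraries lay below all 3 untreated libraries in 26 genes, or 34.2% against 18.5% of all entries, and above them in 2 genes, or 2.63% against 20.4%.

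Without clone in the model, single genes rarely passed the test. With edgeR and adjustment over all 12004 entries, 2 of the 76 genes fell in Dox cells at an adjusted p under 0.05, or 2.63%, against 4.35% of all entries, and none rose, against 6.57% of all entries. In this fit, which leaves out the pairing of libraries by clone, the share of lower genes is no higher than the background. At an unadjusted p under 0.05, 14 were lower, or 18.4% against 12.5%, and none was higher, against 14.7%. With clone as a block, which uses the pairing, 15 fell, or 19.7% against 11.7% of all entries, and none rose, against 13.0%. This count was 24 without clone 1, 0 without clone 2, 0 without clone 4 and 0 with library size alone, all with the block. The share of all entries in these 4 settings is not given here, so their counts are not read as a result about these genes. DESeq2 called 6 lower, or 7.89% against 8.11%, and none higher, against 9.70%. Limma voom called 2 lower, or 2.63% against 3.43%, and none higher, against 6.05%.

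Mrps35 (Entrez 232536, chromosome 6, 147042728 to 147070906 on GRCm38.p6), a small subunit protein with no bacterial counterpart, and Mrpl53 (Entrez 68499, chromosome 6, 83109108 to 83109932), a large subunit protein with none, were the genes that fell. Mrps35 had 58.4, 76.6 and 62.4 CPM in Wash clones 1, 2 and 4, 43.2, 32.3 and 36.8 CPM in Dox clones, and 66.4, 70.3 and 64.6 CPM in untreated clones. Every Dox library lay below every library of the other groups. The log2 fold change of Dox against untreated was -0.84 ± 0.17 (SE, adjusted p = 0.0175). Mrpl53 had 36.6, 31.5 and 30.7 CPM in Wash clones, 23.4, 12.7 and 17.2 CPM in Dox clones, and 30.3, 32.4 and 33.6 CPM in untreated clones. Its Dox values were also below all others, and its log2 fold change was -0.85 ± 0.23 (adjusted p = 0.0471). In fits without the block, both calls were lost without the untreated library of clone 1 (adjusted p = 0.0689 for Mrps35 and 0.1205 for Mrpl53). Both were kept without the Wash library of clone 1. Both were also lost without clone 2, without clone 4 and with library size alone (adjusted p from 0.114 to 0.409). That of Mrpl53 was lost with no filter on low counts (adjusted p = 0.0733). With the block, both were called in all 9 libraries (adjusted p = 0.0103 and 0.0167). They were also called without the untreated library of clone 1 (adjusted p = 0.0211 and 0.0103). They were lost with the block without clone 2, without clone 4 and with library size alone (adjusted p from 0.0794 to 0.165). Exons of Mrpl53 overlap those of Ccdc142os on the opposite strand and Gm42688 on the same strand, and no strand setting is given in the sources used here, so reads of these genes cannot be told apart.

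**Figure D3:**
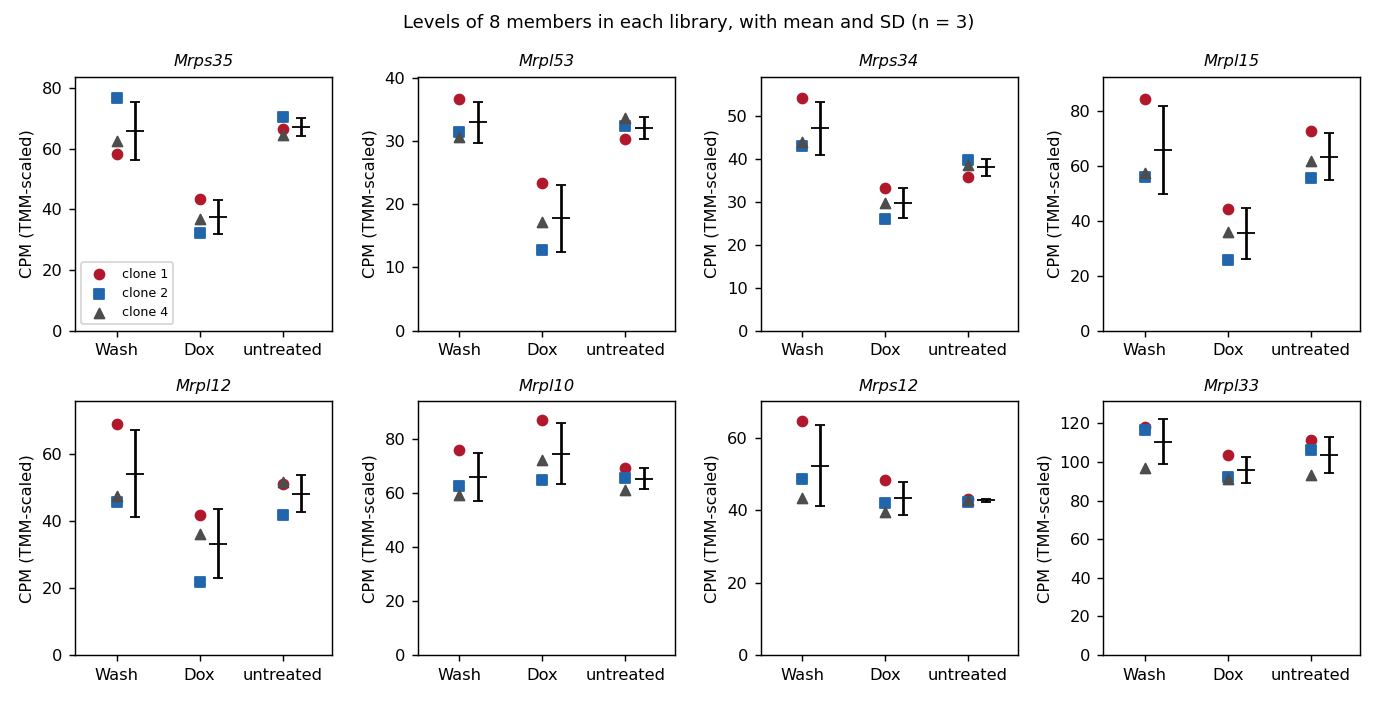
CPM (vertical axes, linear, from 0) of 8 genes in each library, by group on the horizontal axes, with 1 point per clone and the mean with its SD (n = 3) beside the points. The Dox values of Mrps35, Mrpl53, Mrps34 and Mrpl15 lie below all Wash and untreated values, while those of Mrpl10, Mrps12 and Mrpl33 overlap them.

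Of the 15 genes past the threshold with clone as a block, 13 had not passed without it, and the 6 of these with the smallest p belong to the large subunit. Among the other 7 are 2 small subunit genes, Mrps10 and Mrps28 (adjusted p = 0.0467 and 0.0452 with the block). Mrpl15, which has a bacterial counterpart, had 84.0, 55.9 and 57.1 CPM in Wash clones 1, 2 and 4, 44.3, 25.8 and 35.9 CPM in Dox clones, and 72.6, 55.5 and 61.6 CPM in untreated clones. Dox was the lowest library in each clone. Its log2 fold change was -0.84 ± 0.25 without the block (adjusted p = 0.0599) and -0.86 ± 0.14 with it (adjusted p = 0.00509). Mrpl9 averaged 57.7 ± 4.49 CPM in Wash, 36.5 ± 7.29 CPM in Dox and 57.2 ± 9.61 CPM in untreated clones (SD, n = 3 each), with an adjusted p of 0.0720 without the block and 0.0105 with it. Mrpl35 averaged 39.5 ± 6.37 CPM in Wash, 21.6 ± 7.04 CPM in Dox and 38.1 ± 3.68 CPM in untreated clones, with an adjusted p of 0.0728 and 0.0164 with the block. Both proteins have bacterial counterparts, and no Dox value of either reached an untreated value. Without a block, DESeq2 also called Mrpl15, Mrpl9 and Mrpl35 (adjusted p = 0.0188, 0.0268 and 0.0275). Mrpl44, a large subunit protein with a fold like that of RNase III, had an adjusted p of 0.197 and 0.0142 with the block. Mrpl47 and Mrpl17 had 0.107 and 0.0995, and 0.0220 and 0.0257 with the block. Exons of Mrpl9, Mrpl44 and Mrpl47 overlap other genes on the opposite strand (Oaz3, Wdfy1, and Actl6a with Ndufb5), with the same limit as for Mrpl53.

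Only 1 of the 76 genes differed by 2-fold or more between Dox and untreated cells. Mrpl23, a protein at the exit of the large subunit's peptide tunnel, named here after its values were seen, had 4.51, 6.00 and 3.67 CPM in Wash clones 1, 2 and 4, 2.65, 2.91 and 2.81 CPM in Dox clones, and 5.50, 5.92 and 5.81 CPM in untreated clones. Its Dox values were below all others, but counts were low. They were 30, 22 and 29 in Dox clones 1, 2 and 4, and 30 to 49 in the other libraries. The closeness of its Dox values is therefore not read further. The log2 fold change of Dox against untreated was -1.04 ± 0.30 (adjusted p = 0.0573, and 0.0299 with the block). DESeq2 called it without a block (adjusted p = 0.0193).

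By subunit and origin, the 4 classes of genes had medians close to each other. For Dox against untreated the median log2 fold change was -0.21 in 16 small subunit genes with a bacterial counterpart, where none was called, and -0.31 in 10 small subunit genes without one, where Mrps35 was called. It was -0.33 in 29 large subunit genes with a counterpart, where none was called, and -0.25 in 21 without one, where Mrpl53 was called. With clone as a block, 2 of 16, 1 of 10, 9 of 29 and 3 of 21 genes of these classes fell, beside 11.7% of all entries; without the block it was 4.35% of all entries. Differences between the classes were not tested.

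**Figure D4:**
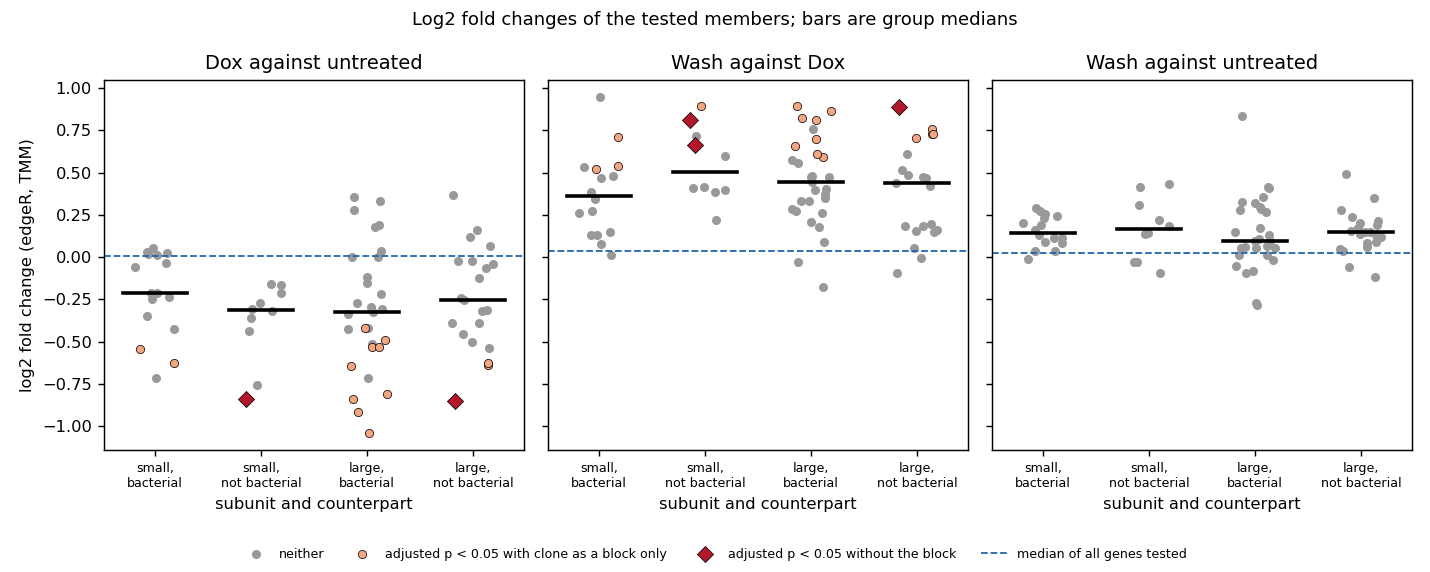
Log2 fold changes (vertical axis) of the 76 tested genes, by subunit and bacterial counterpart, in 3 comparisons. Points are genes, black bars medians of a class, dashed lines the median of all 12004 entries; diamonds passed an adjusted p of 0.05 without the block, orange circles with the block only. In Dox against untreated most points lie below the dashed line, and in Wash against Dox 72 of 76 lie above 0.

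Genes for known functional sites of the ribosome were examined as a list. In the decoding centre of the small subunit, Mrps12 had 64.9, 48.8 and 43.3 CPM in Wash clones 1, 2 and 4, 48.5, 41.9 and 39.5 CPM in Dox clones, and 43.1, 42.4 and 42.9 CPM in untreated clones. Dox and untreated values overlapped, and the log2 fold change was 0.02 ± 0.19 (adjusted p = 0.963). The stalk of the large subunit, which recruits translation factors, is built from the products of Mrpl10, Mrpl11 and Mrpl12. These did not go one way: the log2 fold changes of Dox against untreated were 0.19 ± 0.17, -0.51 ± 0.27 and -0.53 ± 0.27, none past the test. Mrpl12 averaged 54.2 ± 13.0 CPM in Wash, 33.3 ± 10.3 CPM in Dox and 48.2 ± 5.55 CPM in untreated clones and fell with the block (adjusted p = 0.0450). Exons of Mrpl10 and Mrpl12 overlap opposite-strand noncoding genes.

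At the peptide exit, Mrpl45, which lies against the inner membrane, averaged 51.2 ± 11.7 CPM in Wash, 36.9 ± 8.12 CPM in Dox and 48.5 ± 8.08 CPM in untreated clones (adjusted p = 0.330 for Dox against untreated). Mrpl58, a release factor that became part of the large subunit, averaged 37.8 ± 3.68 CPM in Wash, 27.9 ± 2.19 CPM in Dox and 36.6 ± 4.08 CPM in untreated clones. Its Dox libraries lay below all others, but the test was not passed (adjusted p = 0.174). Mrps30, a large subunit protein in spite of its name, averaged 31.4 ± 5.55 CPM in Wash, 20.6 ± 2.82 CPM in Dox and 28.3 ± 4.13 CPM in untreated clones (adjusted p = 0.206). Mrpl41, a large subunit protein without bacterial counterpart, had the highest log2 fold change of all, 0.37 ± 0.20 (adjusted p = 0.264), with 30.2, 21.6 and 23.4 CPM in Wash clones 1, 2 and 4, 29.6, 23.0 and 27.4 CPM in Dox clones, and 19.8, 20.7 and 21.5 CPM in untreated clones. Its untreated libraries were the 3 lowest of the 9.

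The Mrps18 paralogs take up different places, Mrps18c at the bacterial position and Mrps18b elsewhere in the small subunit, and Mrps18a in the large one. Mrps18b averaged 14.7 ± 7.63 CPM in Wash, 7.91 ± 2.96 CPM in Dox and 13.4 ± 3.03 CPM in untreated clones, a log2 fold change of Dox against untreated of -0.75 ± 0.43 (adjusted p = 0.289). Mrps18a and Mrps18c had log2 fold changes of -0.04 ± 0.16 and 0.03 ± 0.21. None of the 3 passed the test, and the difference between them was not tested. Whether reads were shared between these paralogs was not checked. Exons of Mrps18b overlap Gm16279 on the opposite strand, and those of Mrps18c overlap Gm43511 on the same strand.

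Promoter sequence was read for the 69 genes that the RefSeq promoter table lists, 250 bases before to 50 bases after the start, on the build GRCm38.p6. Mrps35 was not among them. Motifs were searched by exact letters on both strands: the ETS core CCGGAAG, the PU.1-type GAGGAAG, the NRF1-type CATGCGC, the E-box CACGTG, the YY1-type AAGATGG, the CCAAT box CCAAT and the TATA box TATAAA. NRF1 and the ETS factor GABP are known regulators of nuclear genes for mitochondrial proteins, and the CATGCGC letters can overlap their own copy on the other strand. The ETS core stood in 25 promoters, or 36.2%, against 19.6% of the 9359 promoters of entries tested. The YY1-type stood in 13, or 18.8% against 7.70%, and the NRF1-type in 8, or 11.6% against 7.38%. The PU.1-type stood in 8, or 11.6% against 13.4%, the CCAAT box in 27, or 39.1% against 39.4%, the E-box in 5, or 7.25% against 10.5%, and the TATA box in 4, or 5.80% against 6.71%. A match is only a description of the letters.

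For Dox against untreated, these promoters show how the motifs lie in 3 of the listed genes with the smallest p. The last is from a gene with a p among the largest. Capitals mark the matches, and promoters without a match are not printed. Mrpl53 (chr6:83108858-83109157, plus strand) has the ETS core on each strand and a CCAAT box, Mrpl9 (chr3:94443086-94443385, plus strand) has the NRF1-type on both strands at 1 place, and Mrpl35 (chr6:71823735-71824034, minus strand) has the YY1-type on each strand. Mrpl18 (chr17:12916042-12916341, minus strand), whose log2 fold change of Dox against untreated was 0.00 ± 0.28, has an ETS core and a CCAAT box. Each is 300 bases long.
Mrpl53: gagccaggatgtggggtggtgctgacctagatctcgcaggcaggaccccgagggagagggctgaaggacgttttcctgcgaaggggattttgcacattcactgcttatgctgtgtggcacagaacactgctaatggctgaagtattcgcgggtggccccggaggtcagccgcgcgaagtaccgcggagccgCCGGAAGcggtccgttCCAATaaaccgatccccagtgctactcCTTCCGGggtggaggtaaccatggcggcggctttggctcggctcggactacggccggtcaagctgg
Mrpl9: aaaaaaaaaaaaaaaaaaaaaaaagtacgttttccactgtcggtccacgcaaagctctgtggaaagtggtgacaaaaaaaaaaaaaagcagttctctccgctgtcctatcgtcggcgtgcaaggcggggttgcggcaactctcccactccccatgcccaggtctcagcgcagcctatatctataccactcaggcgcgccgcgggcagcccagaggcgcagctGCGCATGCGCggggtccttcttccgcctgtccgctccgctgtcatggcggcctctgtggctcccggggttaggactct
Mrpl35: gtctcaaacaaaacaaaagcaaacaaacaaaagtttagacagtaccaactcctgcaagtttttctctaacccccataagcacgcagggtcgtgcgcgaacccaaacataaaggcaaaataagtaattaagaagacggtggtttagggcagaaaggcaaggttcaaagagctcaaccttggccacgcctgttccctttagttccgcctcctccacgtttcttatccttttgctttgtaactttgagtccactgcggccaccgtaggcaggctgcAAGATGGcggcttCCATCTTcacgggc
Mrpl18: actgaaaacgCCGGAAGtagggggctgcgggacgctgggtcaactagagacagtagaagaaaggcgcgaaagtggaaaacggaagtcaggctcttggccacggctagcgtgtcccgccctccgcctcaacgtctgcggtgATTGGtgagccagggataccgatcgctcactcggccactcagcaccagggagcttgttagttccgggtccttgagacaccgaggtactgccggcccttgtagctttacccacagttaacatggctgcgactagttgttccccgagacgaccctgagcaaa

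The ETS core was thus present both in Mrpl53, which fell in Dox cells, and in Mrpl18, which had 114, 71.9 and 64.0 CPM in Wash clones 1, 2 and 4, 88.6, 45.9 and 71.9 CPM in Dox clones, and 74.1, 62.6 and 69.5 CPM in untreated clones. Exons of Mrpl18 overlap Tcp1 on the opposite strand. The promoters of Mrpl23 and of Mrpl55, whose log2 fold change was 0.00 ± 0.24, held none of the 7 motifs. The window read for Mrpl23 (chr7:142532782-142533081, plus strand) lies past the annotated start of the gene at 142532467. Sequence before that start was not read. GC content and CpG counts of the 69 promoters were near those of the entries tested, with medians of 58.3% against 61.0% GC and 21 CpG in both sets.

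The second comparison asked what differed 14 days after doxycycline was removed. Values of most mitochondrial ribosomal protein genes were higher in Wash than in Dox cells. The median log2 fold change was 0.43, or 34.6%, against 0.04 for all entries, and 72 of 76 genes, or 94.7% against 52.6% of all entries, lay above 0, while 4, or 5.26% against 47.4%, lay below. The range was -0.18 to 0.95. Medians within clones 1, 2 and 4 were 0.48, 0.55 and 0.27. In 55 genes, or 72.4% against 28.1%, the Wash library was higher in each clone, and in 1 it was lower in each, or 1.32% against 27.5%. In 23 genes, or 30.3% against 11.8%, all Wash libraries lay above all Dox libraries, and in none did they lie below, against 14.5%. Without the Wash library of clone 1 the median was 0.27. Both comparisons use the same Dox libraries, so their values are not independent.

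By edgeR without the block, 3 of 76 genes rose in Wash against Dox cells, or 3.95%, against 3.64% of all entries. None fell, against 6.02%. At an unadjusted p under 0.05, 23 were higher, or 30.3% against 12.4%, and none was lower, against 13.6%. With clone as a block 19 rose, or 25.0% against 10.4% of all entries, and none fell, against 12.4%. This count was 25 without clone 1, 0 without clone 2, 0 without clone 4 and 1 with library size alone, all with the block. Here too the share of all entries in these settings is not given, and the counts are not read further. DESeq2 called 9 higher, or 11.8% against 7.45%, and none lower, against 8.94%. Limma voom called 3 higher, or 3.95% against 2.93%, and none lower, against 6.34%.

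The 3 genes that rose were Mrps35, Mrpl53 and Mrps34 (Entrez 79044, chromosome 17, 24895120 to 24896289), a small subunit protein without bacterial counterpart. Mrps35 had a log2 fold change of 0.81 ± 0.17 (adjusted p = 0.0222) and Mrpl53 one of 0.89 ± 0.23 (adjusted p = 0.0434), from the values given above. Mrps34 had 54.2, 43.0 and 43.9 CPM in Wash clones 1, 2 and 4, 33.2, 26.1 and 29.7 CPM in Dox clones, and 35.8, 39.7 and 38.5 CPM in untreated clones. The 3 groups did not overlap, with Wash above untreated and untreated above Dox, and the log2 fold change of Wash against Dox was 0.67 ± 0.17 (adjusted p = 0.0413). For Dox against untreated it was -0.36 ± 0.17, which did not pass (adjusted p = 0.215). Without the Wash library of clone 1, Mrps35 kept its call (adjusted p = 0.0128), while Mrps34 and Mrpl53 did not (adjusted p = 0.0630 and 0.0622). Without the untreated library of clone 1, Mrps35 was the 1 gene called (adjusted p = 0.0471). All 3 calls were lost without clone 2, without clone 4, with library size alone and with the Wash and Dox groups alone (adjusted p from 0.0930 to 0.385). Those of Mrpl53 and Mrps34 were also lost with no filter on low counts (adjusted p = 0.0655 and 0.0835), and that of Mrps34 without clone 1 (adjusted p = 0.0928). These fits had no block. With the block, Mrps35, Mrps34 and Mrpl53 were called in all 9 libraries (adjusted p = 0.0120, 0.0168 and 0.0155). They were lost with the block without clone 2, without clone 4 and with library size alone (adjusted p from 0.0727 to 0.159). Exons of Mrps34 overlap Mapk8ip3 on the opposite and Nme3 on the same strand.

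Among the genes that edgeR called in Wash against Dox with the block and not without it, Mrpl15, Mrpl9, Mrpl44, Mrpl35, Mrpl11 and Mrpl38 had the smallest p. Without a block, DESeq2 also called Mrpl15, Mrpl9, Mrpl35 and Mrpl11 (adjusted p = 0.0110, 0.0224, 0.0167 and 0.0399). Their log2 fold changes without the block ran from 0.66 for Mrpl9 to 0.89 for Mrpl15. Mrpl11, of the stalk, had 62.2, 36.0 and 37.9 CPM in Wash clones 1, 2 and 4, 33.2, 19.6 and 24.8 CPM in Dox clones, and 38.3, 34.0 and 38.7 CPM in untreated clones. Its Wash values lay above its Dox values without overlap (adjusted p = 0.0915, and 0.0146 with the block). Mrpl38 averaged 35.0 ± 11.9 CPM in Wash, 20.7 ± 3.36 CPM in Dox and 32.0 ± 6.60 CPM in untreated clones (adjusted p = 0.126, and 0.0156 with the block). Of the genes at functional sites named above, Mrpl12 rose with the block as well (adjusted p = 0.0210), as did Mrps18b (adjusted p = 0.0496). Mrpl10 had a log2 fold change of -0.18 ± 0.17, the lowest of the 76.

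The medians for Wash against Dox were again similar by class, at 0.36 and 0.51 in small subunit genes with and without bacterial counterpart, and 0.44 in both classes of the large subunit. In the same order, 0 of 16, 2 of 10, 0 of 29 and 1 of 21 genes rose, beside 3.64% of all entries. With clone as a block 3, 3, 8 and 5 rose, beside 10.4% of all entries.

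The third comparison set washed cells against cells never given the drug. None of the 76 genes was called higher or lower by edgeR, with or without the block, by DESeq2 or by limma voom, and neither was any of all 12004 entries (0%). At an unadjusted p under 0.05 edgeR had none of the 76, against 0.158% of entries in each direction. With the block 2 were higher, or 2.63% against 0.500%, and none lower, against 0.317%. The shares of all entries are far below what the threshold of 0.05 alone would give. The zeros therefore do not show that washed cells had returned to the untreated state. The median log2 fold change of Wash against untreated was 0.14, against 0.02 for all entries, and 64 genes, or 84.2% against 53.7%, lay above 0, while 12, or 15.8% against 46.3%, lay below. In 17 genes, or 22.4% against 9.21%, the Wash library was higher in each clone, and in 1 it was lower in each, or 1.32% against 8.89%. Clones differed in this: their medians were 0.36, 0.09 and -0.04 in clones 1, 2 and 4. Without the Wash library of clone 1 the median was -0.03. All 3 Wash libraries lay above all 3 untreated libraries in 5 genes, or 6.58% against 1.31%: Mrps12, Mrps34, Mrpl27, Mrpl40 and Mrpl41. They lay below them in none, against 1.05% of all entries.

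Clone differences and differences between clones in the response to the drug were tested over all 9 libraries. Each clone had 1 library per group, so for the response its Wash and untreated libraries were pooled as libraries off doxycycline. No gene of the 76 differed between clones past the adjusted threshold, nor did any of all entries (0%). At an unadjusted p under 0.05 there were 31, or 40.8% against 37.5% of all entries. Both shares are far above what the threshold of 0.05 alone would give. Mrps15 came close in this clone test (adjusted p = 0.0518), so the 0 does not show that the clones were alike. In Mrpl16, a large subunit gene picked for its wide spread, the 3 clone 1 libraries were above those of clone 2, with 42.7, 20.5 and 16.1 CPM against 10.7, 10.7 and 10.8 CPM in Wash, Dox and untreated cells. No gene had a response that differed between clones past the adjusted threshold (0% of all entries). At an unadjusted p under 0.05 there were 0 of 76, against 3.39% of all entries. The pooled libraries of clone 1 differed, with genes of the mitochondrial genome at 3.28% of counts in Wash and 12.7% in untreated cells. Such differences count as error in this test, so its result does not show that the clones responded alike. Differences between clones in Dox against untreated cells alone were not tested.

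Other genes of the same pathway were taken from lists. Of 5 ribosome proteins that carry other names, Gadd45gip1, a large subunit protein, fell in Dox cells. It had 58.9, 70.5 and 40.6 CPM in Wash clones 1, 2 and 4, 24.5, 33.3 and 26.5 CPM in Dox clones, and 62.4, 59.1 and 46.3 CPM in untreated clones, with all Dox values lowest. Its log2 fold changes were -0.99 ± 0.24 for Dox against untreated (adjusted p = 0.0301) and 1.01 ± 0.24 for Wash against Dox (adjusted p = 0.0301). The median of these 5 for Dox against untreated was -0.54.

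The RNA partners of these proteins, mt-Rnr1 and mt-Rnr2, are transcribed from mitochondrial DNA; they were added as a list after values had been seen. Levels of mt-Rnr1 were 142, 4249 and 2644 CPM in Wash clones 1, 2 and 4, 71.3, 980 and 303 CPM in Dox clones, and 7058, 4112 and 2411 CPM in untreated clones. Dox was lowest in each clone, and Wash clone 1 was near Dox clone 1. The log2 fold change of Dox against untreated was -3.33 ± 1.19 (adjusted p = 0.108, and 0.0353 with the block). For mt-Rnr2 it was -2.25 ± 1.02 (adjusted p = 0.193, and 0.0382 with the block). None of the 13 protein genes of the mitochondrial genome passed the test, with or without the block. Among all entries 4.35% fell and 6.57% rose in Dox against untreated cells, or 11.7% and 13.0% with the block. The median of the 13 was -0.54, but clones did not go one way. Their sums were 22323, 196423 and 65179 CPM in Dox clones 1, 2 and 4. In untreated clones they were 149179, 150877 and 193798 CPM.

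Of 15 translation factors of the mitochondrion, Gfm2, the factor that recycles its ribosomes, fell in Dox cells (log2 fold change -0.73 ± 0.19, adjusted p = 0.0371), and 14 of the 15 lay below 0. Of 25 genes for ribosome assembly and rRNA modification, the helicase gene Ddx28 fell (-0.78 ± 0.21, adjusted p = 0.0429). Of 17 mitochondrial tRNA synthetases, Tars2, for threonine, fell in Dox cells (-0.99 ± 0.22, adjusted p = 0.0248) and rose in Wash against Dox cells (0.83 ± 0.22, adjusted p = 0.0483). Twnk, the mitochondrial DNA helicase, was the 1 of 13 replication and transcription genes that fell (-0.91 ± 0.23, adjusted p = 0.0382), and its exons overlap those of Mrpl43, for which the log2 fold change was 0.16 ± 0.15. No gene of these lists rose in Dox against untreated cells, beside 6.57% of all entries. Among all entries, 4.35% fell in Dox against untreated cells without the block, and 49.7% lay below 0. In Wash against Dox cells 3.64% of all entries rose. A single call in so short a list is not read as a result about the list.

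Mitochondrial chaperone, protease and stress genes numbered 16, of which 3 fell in Dox cells and none rose, beside 4.35% and 6.57% of all entries. With clone as a block 7 fell and 1 rose, beside 11.7% and 13.0% of all entries. Atf5, a transcription factor of the mitochondrial stress response, averaged 56.3 ± 12.1 CPM in Wash, 19.4 ± 3.02 CPM in Dox and 54.3 ± 10.9 CPM in untreated clones (log2 fold change of Dox against untreated -1.49 ± 0.23, adjusted p = 0.00642). The chaperone gene Trap1 had a log2 fold change of -1.05 ± 0.25 (adjusted p = 0.0296), and Hspa9, the main import chaperone of the matrix, averaged 526 ± 112 CPM in Wash, 271 ± 66.5 CPM in Dox and 542 ± 79.3 CPM in untreated clones (adjusted p = 0.0342). These 3 genes and Clpp, a protease subunit, rose in Wash against Dox cells and none fell, beside 3.64% and 6.02% of all entries. With the block 8 rose and 1 fell, beside 10.4% and 12.4%.

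The cytoplasmic ribosome gives a scale for these values. Of 83 cytoplasmic ribosomal protein genes tested, 17 fell in Dox against untreated cells and none rose, beside 4.35% and 6.57% of all entries. Their median log2 fold change was -0.76, beside -0.28 for the mitochondrial ribosomal protein genes. With clone as a block 52 fell and 1 rose, beside 11.7% and 13.0% of all entries. In Wash against Dox cells 5 rose and none fell, beside 3.64% and 6.02% of all entries, with a median of 0.63 beside 0.43. With the block 28 rose and 1 fell, beside 10.4% and 12.4%. Against untreated cells, washed cells had medians of -0.15 for the cytoplasmic and 0.14 for the mitochondrial genes. The difference between the 2 sets was not tested.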

How the data were processed

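Per the file headers, the 9 deposited files hold raw read counts per Entrez gene with gene lengths; per the labels' protocols, RNA of sorted cells was prepared with an RNeasy kit and Illumina libraries. The submitters' processing notes name mm10, limma 3.22.0, edgeR 3.8.2, featureCounts and CASAVA 1.8.2; the sources used here give no aligner, annotation version, strand setting or rule for reads with several matches.

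Symbols, coordinates and promoters came from RefSeq (GRCm38.p6), exon overlaps from a GENCODE annotation of that build. Counts were filtered (filterByExpr), TMM-scaled and fitted by edgeR 4.0.16 in R 4.3.3 (glmQLFit, 1 mean per group, 9 libraries), with Benjamini-Hochberg adjustment over 12004 entries at 0.05; SE is the log2 fold change over the root of F. CPM are TMM-scaled; log2 CPM used a prior count of 2. P-values rest on how 3 clones of 1 line vary.

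Same-numbered libraries come from the same clone, so numbers pair them. Their deviations from group means correlated at 0.290 to 0.680, other pairs at -0.692 to 0.323. The main fit left this pairing out, and the fit with clone as a block used it. No libraries were duplicates: in the closest pair, chi-square over degrees of freedom was 3.62.

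Genes named were those called, up to 6 of smallest p called with the block only, a set at functional sites, the 3 highest and 3 lowest per length, and from each other list up to 4 called. Members and lists were chosen with earlier results of these data known. On simulated counts for Dox against untreated with 12004 genes, edgeR recovered 10% of 2-fold and 74% of 4-fold changes with 3 false calls. Alternatives used DESeq2 1.42.0, limma 3.58.1 (voom), other scalings, filters and left-out libraries; 2 of them (without the Wash library of clone 1, and the block with library size alone) were added after the data were seen.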

Additional observations from a re-analysis of the deposited data

How the results depend on the processing

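Counts are of genes called for Dox against untreated and, second, for Wash against Dox, which were 2 and 3. In both comparisons the calls depended on the processing, and the cause was not tested. Shares of all entries are given above for the main fit, the block, DESeq2 and limma voom only. Counts in the other settings are not read as a result about these genes. Library size alone gave 0 and 0, no filter on low counts 1 and 1, 5 CPM in 3 libraries 4 and 4, DESeq2 6 and 9, the 2 groups alone 5 and 0, RLE 2 and 4, and limma voom 2 and 3. The replicate block gave 15 and 19, and without the untreated library of clone 1 it gave 15 and 28; without that library and without the block they were 0 and 1. The block with library size alone gave 0 and 1. Without the Wash library of clone 1 they were 6 and 2. Leaving out each clone gave 0 to 2 and 0 to 2 without the block, and 0 to 24 and 0 to 25 with it; both were 0 without clone 2 or clone 4. Wash against untreated stayed at 0 in all settings.

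The median log2 fold change kept its direction for Dox against untreated and Wash against Dox in all settings. With library size alone it was -0.016 for Dox against untreated, but all entries then had a median of 0.23, so relative to them it was -0.25; with the block added it was -0.080. Without the Wash library of clone 1 it was 0.27 for Wash against Dox and -0.03 for Wash against untreated; for Wash against untreated, library size alone gave 0.37, with 0.22 over all entries. At this depth, Mrpl36 and Mrps36 could not be tested.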
